A study of Homo sapiens with 3 samples.

Results

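DNA methylation was compared between the knockout lines SOX4 KO #1 and SOX4 KO #2, called line 1 and line 2 here, each measured in 1 library. Both derive from Hep3B, a cell line from a human liver cancer (hepatocellular carcinoma). The assay was TruSeq Methyl Capture EPIC, in which genomic regions rich in regulatory CpGs are captured, treated with bisulfite and sequenced. The library of the parental cells set methylation classes in 2 places and entered no comparison. Both lines carry the same label, a CRISPR/Cas9 knockout of SOX4 made before the study, and both were kept under puromycin according to the methods of the study. The edit itself and the number of cells that founded each line were not given in the sources used here. With 1 library a line, differences between the lines cannot be told apart from differences between cultures or library preparations, and no test of a condition is possible. The members were the autosomal CpGs with at least 10 reads in both lines after the strands were summed, 2309352 of the 3225751 CpGs seen in any of the 3 libraries of the series. The methylation level of a CpG was the percentage of reads that kept a C after bisulfite treatment, and all differences are line 1 minus line 2 in percentage points.

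In human cells, most CpGs outside CpG islands are methylated, whereas CpG-dense islands at gene starts are usually free of methylation. Cancer cells often have long CpG-poor regions of intermediate methylation, which lose the mark over many cell divisions because copying it onto new DNA is incomplete there. The DNMT enzymes place and maintain the mark, and TET enzymes oxidise it. A level between the extremes in a bulk library can come from a mixture of cells, of alleles, or of neighbouring molecules in different states, which cannot be told apart here.

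Line 1 was less methylated than line 2 at most places where the lines differed. The difference lay mainly in partly methylated DNA with few CpGs seen per 1 kb. The mean level over CpGs was 39.1% in line 1 and 41.0% in line 2, a difference of -1.95 points with an SD of 11 points over CpGs. Line 1 was lower at 39.6% of CpGs, higher at 28.3% and equal at 32.1%. By a 2-sided Fisher exact test per CpG with Benjamini-Hochberg adjustment over all CpGs, at an adjusted p under 0.05 and 25 points, 23669 CpGs were lower in line 1 (1.02% of those tested) and 3999 were higher (0.173%), a ratio of 5.92. These calls compare 2 libraries, not 2 conditions. The median depth over the compared CpGs was 28 reads in line 1 and 38 reads in line 2, and the autosomal CpG reads numbered 95070093 and 130520442. Among levels from 20 to under 80%, line 1 held 18.6% of its CpGs and line 2 held 20.6%, and thinning each CpG to the smaller of its depths left 18.6% and 20.5%.

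The promoters that differed most between the lines are shown first, because they are the places where a gene can be named and its sequence read. RefSeq promoter sequences of 300 bases (250 before to 50 after a start site, GRCh38.p14) were placed on the CpG positions of the files by the spacing of their CpGs, and coordinates are GRCh37 as placed. They run 5′ to 3′ on the strand of the gene, with every CpG in capitals. The first 4 genes had the largest fall in line 1 and the last 4 the largest rise, among named genes. Each gene is shown by its placed start site with the largest difference in that direction. The values given for a gene below are those of that start site alone.
KDM2B: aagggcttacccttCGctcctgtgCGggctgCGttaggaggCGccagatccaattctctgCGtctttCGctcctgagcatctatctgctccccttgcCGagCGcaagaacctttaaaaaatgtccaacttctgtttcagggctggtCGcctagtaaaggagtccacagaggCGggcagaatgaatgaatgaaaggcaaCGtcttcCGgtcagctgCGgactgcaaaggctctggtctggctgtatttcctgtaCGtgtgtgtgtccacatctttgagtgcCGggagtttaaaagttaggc
HAMP: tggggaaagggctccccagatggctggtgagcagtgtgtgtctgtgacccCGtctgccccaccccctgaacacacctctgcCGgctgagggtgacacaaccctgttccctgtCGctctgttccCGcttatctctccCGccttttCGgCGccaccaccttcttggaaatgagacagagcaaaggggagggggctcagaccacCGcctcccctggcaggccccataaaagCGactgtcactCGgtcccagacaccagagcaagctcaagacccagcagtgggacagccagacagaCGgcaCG
LTBP1: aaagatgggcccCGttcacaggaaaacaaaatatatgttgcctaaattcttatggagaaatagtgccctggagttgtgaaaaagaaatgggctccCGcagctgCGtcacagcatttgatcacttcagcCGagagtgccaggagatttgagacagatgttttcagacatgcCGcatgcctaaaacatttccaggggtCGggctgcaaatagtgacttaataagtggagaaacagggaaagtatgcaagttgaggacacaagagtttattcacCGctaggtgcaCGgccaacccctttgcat
OXCT1: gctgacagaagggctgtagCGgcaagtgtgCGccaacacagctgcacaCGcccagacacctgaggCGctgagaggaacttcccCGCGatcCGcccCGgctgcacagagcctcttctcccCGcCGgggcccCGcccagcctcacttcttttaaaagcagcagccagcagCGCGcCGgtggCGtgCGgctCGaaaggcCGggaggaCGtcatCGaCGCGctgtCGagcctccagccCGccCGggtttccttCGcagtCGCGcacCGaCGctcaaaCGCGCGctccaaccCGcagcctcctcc
GDNF: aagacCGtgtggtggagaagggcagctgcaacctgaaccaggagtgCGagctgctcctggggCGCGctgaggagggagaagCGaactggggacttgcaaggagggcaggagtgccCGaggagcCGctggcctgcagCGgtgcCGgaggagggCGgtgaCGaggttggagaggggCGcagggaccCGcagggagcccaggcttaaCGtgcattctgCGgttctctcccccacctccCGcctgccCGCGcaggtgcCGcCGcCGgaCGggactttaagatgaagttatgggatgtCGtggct
ETFB: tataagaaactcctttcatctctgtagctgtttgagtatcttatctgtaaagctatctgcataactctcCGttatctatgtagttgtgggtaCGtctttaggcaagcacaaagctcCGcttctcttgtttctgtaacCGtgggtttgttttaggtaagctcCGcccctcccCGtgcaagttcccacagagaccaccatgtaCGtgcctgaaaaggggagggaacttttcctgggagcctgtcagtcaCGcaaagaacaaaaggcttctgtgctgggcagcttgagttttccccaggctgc
SLC25A22: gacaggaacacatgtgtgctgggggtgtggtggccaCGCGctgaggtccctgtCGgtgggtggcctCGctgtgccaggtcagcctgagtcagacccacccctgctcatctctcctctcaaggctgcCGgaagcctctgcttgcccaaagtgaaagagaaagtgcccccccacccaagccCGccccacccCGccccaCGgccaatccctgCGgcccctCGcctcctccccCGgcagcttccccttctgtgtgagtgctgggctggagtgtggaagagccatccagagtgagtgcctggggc
AP3S1: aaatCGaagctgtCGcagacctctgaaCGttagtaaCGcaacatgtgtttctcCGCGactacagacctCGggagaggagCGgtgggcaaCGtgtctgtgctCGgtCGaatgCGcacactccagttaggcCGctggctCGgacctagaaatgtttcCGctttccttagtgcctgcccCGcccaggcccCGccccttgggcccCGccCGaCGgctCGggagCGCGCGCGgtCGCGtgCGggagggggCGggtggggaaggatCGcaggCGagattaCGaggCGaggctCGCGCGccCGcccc

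KDM2B, a histone demethylase that binds unmethylated CpG islands, had the largest difference of a placed promoter. Its sequence lay at chr12:122018879-122019178 on the minus strand, with 6 measured CpGs at a mean of 32.5% in line 1 and 78.1% in line 2. Pooled over these CpGs, 29 of 89 reads were methylated in line 1 (32.6%, exact Clopper-Pearson 95% interval 23 to 43.3%) and 53 of 68 in line 2 (77.9%, interval 66.2 to 87.1%). Read counts pooled over CpGs, here and below, are sums over CpGs, so a read that spans several CpGs counts at each. Such intervals cover counting error only and are too narrow. These counts are not independent, and PCR reads are not independent molecules. Every one of the 6 CpGs was lower in line 1, from 27.8 to 40% against 75 to 80%, and none passed the Fisher test alone at these depths.

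HAMP encodes hepcidin, the iron-regulating hormone made by hepatocytes. Its promoter at chr19:35773181-35773480 on the plus strand was at 4.09% in line 1 and 48.6% in line 2 over 8 CpGs. Pooled reads gave 4.14% (interval 2.08 to 7.28%) and 47.5% (interval 41.4 to 53.5%). All 8 CpGs were lower in line 1 and 6 passed the test. The highest CpG of line 1, at 12.5%, was below the lowest of line 2, at 20.5%.

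LTBP1, which holds TGF-beta in its latent form in the matrix, was at 43.0% in line 1 and 85.0% in line 2 over 5 CpGs at chr2:33359186-33359485 on the plus strand. OXCT1, an enzyme of ketone body use that the normal liver largely lacks, had a CpG-dense promoter at chr5:41870478-41870777 on the minus strand, with 32 measured CpGs. Its mean was 16.7% in line 1 and 52.8% in line 2, and 31 of the 32 CpGs were lower in line 1. Single CpGs of line 1 lay between 0 and 36.4% and those of line 2 between 15.4 and 92.3%, so the ranges overlapped. The pooled intervals, 14.6 to 20.2% and 46.9 to 55.4%, are too narrow for the reason given above.

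In the other direction, GDNF, a neurotrophic factor, had the largest rise of a named gene. The sequence at chr5:37834875-37835174 on the minus strand was at 71.1% in line 1 and 36.0% in line 2 over 18 CpGs. All 18 CpGs were higher in line 1 and 9 passed the test, with 364 of 499 reads methylated against 298 of 859. ETFB, a subunit of the mitochondrial electron transfer flavoprotein, was at 60.3% and 26.2% over 8 CpGs at chr19:51858047-51858346 on the minus strand, all higher in line 1.

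SLC25A22, a mitochondrial glutamate carrier, was at 70.2% in line 1 and 43.1% in line 2 over 5 CpGs at chr11:796189-796488 on the minus strand. AP3S1, a subunit of the AP-3 adaptor complex of vesicle transport, differed from the others in that line 2 was almost unmethylated. Its CpG island at chr5:115177393-115177692 on the plus strand was at 27.5% in line 1 and 1.85% in line 2 over 24 CpGs, with 139 of 455 reads methylated against 12 of 559.

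Over all promoters that could be placed, the lines were close. None of them lay on chromosome 8, so the promoters of that chromosome are not covered. The 12373 placed promoters of 10595 genes, 36.7% of the autosomal sequences, were at a mean of 11.3% in line 1 and 12% in line 2, and their median difference was -0.02 points. Line 1 was lower by 25 points or more at 32 promoters (0.259%) and higher at 7 (0.0566%), and by 10 points or more it was lower at 406 (3.28%) and higher at 79 (0.638%). Most of the lower promoters rested on few CpGs: with at least 10 measured CpGs, 8 promoters were lower and 5 higher by 25 points. Of the 10303 promoters under 20% by the mean of both lines, 2 were lower and 2 higher by 25 points, and of the 1345 partly methylated ones, 29 were lower and 4 higher. Promoters with 7 to 9 CpGs in their sequence differed by a mean of -2.92 points, and those with 30 or more by -0.131 points.

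**Figure D1:**
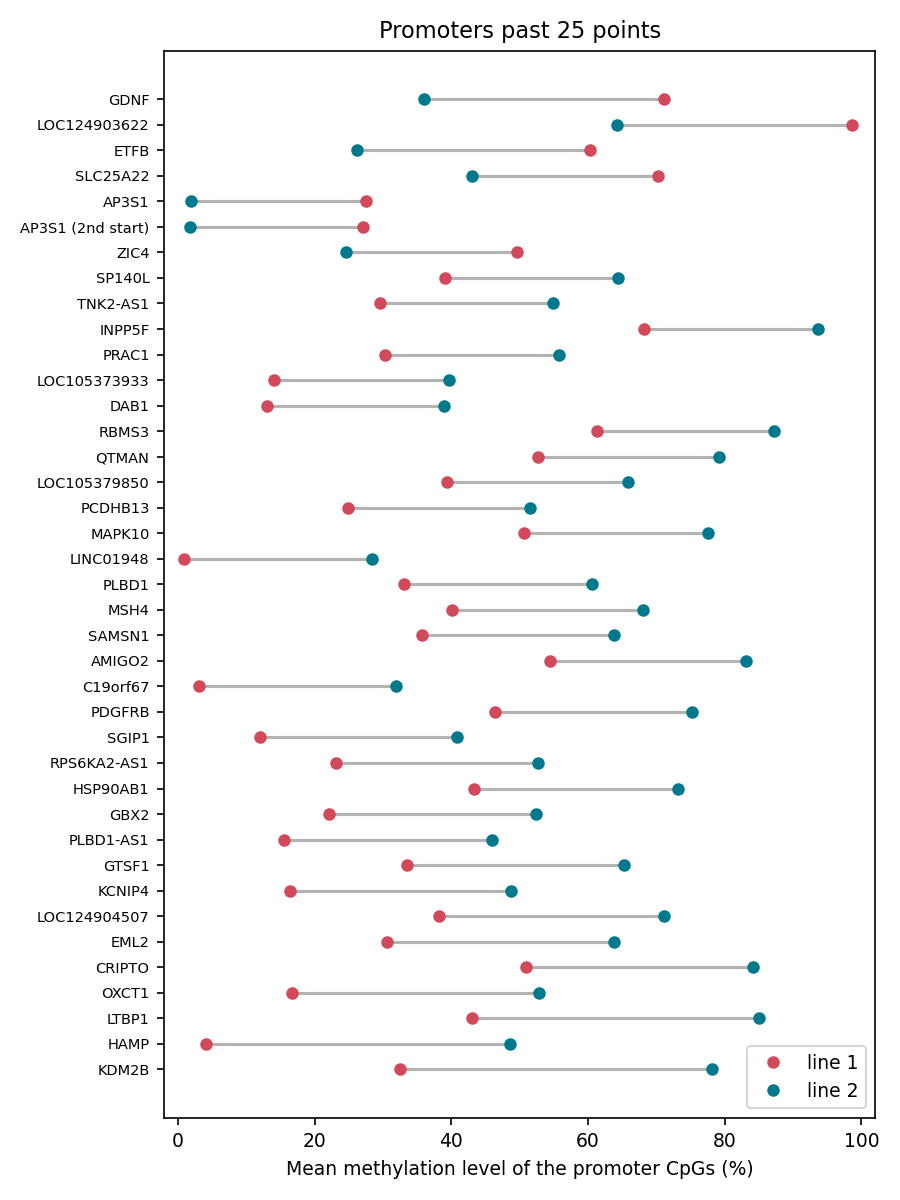
Mean methylation level in percent (horizontal axis) of the CpGs of each placed promoter that differed by 25 points or more, in line 1 (red) and line 2 (teal). The 7 promoters at the top were higher in line 1 and the 32 below were lower, and KDM2B and HAMP at the bottom had the longest bars; each point is 1 library.

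The other promoters past 25 points belonged to genes of varied roles. Developmental and signalling genes among the lower ones included CRIPTO, a co-receptor of Nodal (50.9% in line 1 and 84.1% in line 2), GBX2, a homeobox factor (22.2% and 52.4%), PDGFRB, a PDGF receptor (46.4% and 75.3%), and MAPK10, the kinase JNK3 (50.7% and 77.6%). GTSF1, a factor of the piRNA pathway, was at 33.5% and 65.3%, and MSH4, a meiotic recombination protein, at 40% and 68.0%. These genes are named from the promoters past 25 points and are no list. A start site of HSP90AB1, the beta form of cytosolic HSP90, was at 43.3% in line 1 and 73.2% in line 2. ZIC4, a zinc finger factor of neural development, was among the higher ones, at 49.7% and 24.7%. PLBD1 and the antisense RNA PLBD1-AS1, whose placed sequences lie beside each other on chromosome 12, were both lower in line 1, at 33.0% against 60.6% and 15.5% against 45.9%.

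Gene lists chosen with earlier results of these data known were counted beside this background, and no list is called particular. Of 19 folate genes, which supply one-carbon units for nucleotide and methyl group synthesis, 12 had a placed promoter, and none of their 17 start sites differed by 10 points. Start sites of FPGS, of MTHFD1L and of MTR overlapped in part, so the same CpGs counted more than once in the folate median of 2.08 points. Over genes, with start sites averaged, the median was 0.43 points and 7 of the 12 genes lay within 1 point of 0, while the median over all promoters was -0.02 points. MTHFD1L, the mitochondrial formate-producing synthase, was at 6.88% in line 1 and 0.214% in line 2 at one start site, with 62 of 998 and 2 of 1304 reads methylated. MTR, methionine synthase, was at 2.99% and 0.0952%, with 33 of 1359 and 1 of 1295 reads. ATIC, an enzyme of purine synthesis, was at 3.41% and 0.280%. FPGS, which adds glutamates to folate, was at 4.36% and 0.122% at one start site and at 3.43% and 6.41% at another. SHMT1, the cytosolic serine hydroxymethyltransferase, was at 0.166% and 0.731%, and MTHFD2, the mitochondrial dehydrogenase that the study followed, was at 0.239% in line 1 and 0.269% in line 2. A rise of at least 2 points was found at 7.14% of all placed promoters.

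Of a list of 18 germline genes, which did not hold GTSF1 or MSH4, 11 had a placed promoter and none passed 25 points. Their median was -3.04 points over 14 start sites and -1.67 points over genes, with 6 genes below 0 and 5 above. SYCE1, of the synaptonemal complex, was at 47.4% in line 1 and 34.6% in line 2, and TEX101, a sperm surface protein, at 32.5% and 44.0%. Of 25 imprinted genes, 11 were placed, with a median of -0.80 points over 20 start sites and -0.61 points over genes. INPP5F passed 25 points, at 68.2% and 93.6%. FAM50B, which carries methylation on the maternal allele in normal tissue, was at 47.1% in line 1 and 29.4% in line 2, with all 23 CpGs higher in line 1. Of 9 DNA methylation enzyme genes, 5 were placed and none differed by 10 points. UHRF1, which recruits DNMT1 to newly copied DNA, was at 6.30% in line 1 and 15.1% in line 2.

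Of a list of 25 hepatocyte genes, which did not hold HAMP, 6 had a placed promoter, and none of these 6 differed by 10 points. FOXA1 and TF were at 0 in both, CYP2E1 was at 5.31% in line 1 and 11.1% in line 2, and SERPINA1 at 5.93% and 0. Of 5 fibroblast markers only PDGFRB was placed, with the values above, and none of 5 blood cell markers was, so the presence of such cells was not tested.

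SOX4 and STAT6, the genes at the centre of the study, were read separately. The SOX4 promoter was unmethylated in both lines, with 2 of 679 reads methylated in line 1 and 10 of 879 in line 2 over 8 CpGs. About 4 to 6 kb before it, an interval named after its values were seen, 111 CpGs at chr6:21587766-21589512 were at 37.3% in line 1 and 12% in line 2, with 1995 of 5142 and 1007 of 8564 reads methylated. There, 37 CpGs passed the test as higher in line 1 and none as lower. Of the other SOX genes, SOX30, expressed in male germ cells, was at 63.0% in line 1 and 79.1% in line 2, and SOX5 and SOX6 were at or below 0.5% in both; 5 of 18 SOX genes were placed in all, with a median of -1.09 points and none past 25 points.

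STAT6, a transcription factor activated by interleukin-4, was more methylated in line 1. Its placed promoter was at 95.6% in line 1 and 70.8% in line 2 over 5 CpGs, just under 25 points, with 114 of 120 and 67 of 95 reads methylated. Over the interval around its first exon that the study plotted, 18 CpGs at chr12:57504212-57505961 were at 74.9% in line 1 and 61.0% in line 2, and none of them passed the Fisher test. STAT2, STAT4 and STAT5A, the other 3 of the 4 placed among 7 STAT genes, differed by 0.86, -5.25 and -0.11 points.

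Fully, partly and unmethylated DNA were compared in windows of 1 kb with 5 or more CpGs. The 117384 windows held 79.5% of the compared CpGs, and the 473187 CpGs outside them differed by a mean of -3.27 points. Line 1 was lower by 25 points or more in 980 windows (0.835%) and higher in 137 (0.117%), and window levels of the lines correlated at r = 0.985 across windows. The median counting error of a window difference was 2.12 points, and the SD over windows was 6.43 points.

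The mean difference was largest at intermediate levels. In the 42248 windows with a mean of both lines from 20 to under 80%, the level was 47.1% in line 1 and 51.8% in line 2, a mean difference of -4.78 points with a 95% counting interval of 0.0338 points to each side, and 74.3% of these windows were lower in line 1. They held 931 of the 980 lower windows and 130 of the 137 higher ones, a count that the classes fix in part, since a window differing by 25 points cannot have a mean near either end. The 39233 unmethylated windows differed by -1.27 points and the 35903 fully methylated ones by -0.48 points. The largest difference of a level class, -5.49 points, was at 40 to 60%, where 3.23% of windows were lower and 0.399% higher by 25 points, and at 95% or more it was 0.15 points.

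The values at both ends depended on which library set the class. Fully methylated windows differed by 0.04 points with the class set by line 1, -1.17 points by line 2 and -1.68 points by the parental library, and unmethylated windows by -2.04, -0.67 and -0.46 points. The order of these classes was thus reversed when line 2 or the parental library set them, while partly methylated windows stayed between -4.71 and -4.42 points. Of 38861 windows that were partly methylated in the parental library, 15.9% were under 20% in line 1 and 7.65% in line 2, and 3.10% and 2.46% were at 80% or more. Windows at 80% or more in line 2 stayed there in line 1 in 91.1% of cases and were partly methylated in 8.90%. Of windows partly methylated in line 2, 9.96% were under 20% and 3.11% at 80% or more in line 1.

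**Figure D2:**
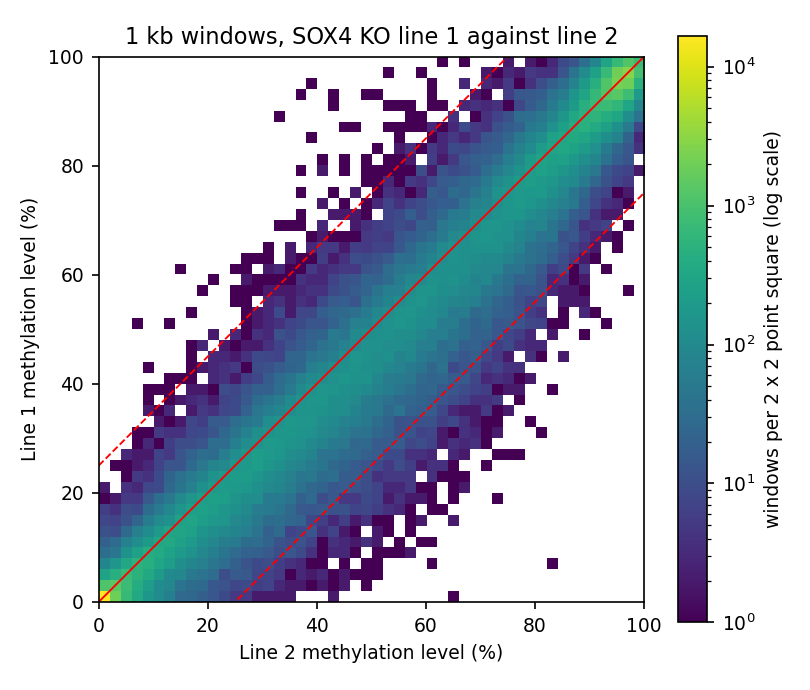
Methylation level of 117384 windows of 1 kb in line 2 (horizontal axis, percent) and line 1 (vertical axis, percent), coloured by the number of windows on a log scale; the solid line marks equal levels and the dashed lines 25 points. More windows lie below the lower dashed line (980) than above the upper one (137), mostly at intermediate levels, while both ends of the diagonal are narrow.

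Windows with few CpGs seen in either line differed more than windows with many. CpGs seen depend on the captured regions and the depth, so this density is not the CpG content of the sequence. CpGs in windows with 1 to 4 CpGs differed by -3.36 points, those with 5 to 9 by -2.94, those with 10 to 19 by -2.26, those with 20 to 39 by -1.58, those with 40 to 79 by -0.89 and those with 80 or more by -0.41. The share of CpGs called lower fell with density from 1.87% to 0.243%, while the share called higher stayed between 0.0898% and 0.225%. Median depth was similar over the classes, at 26 to 29 reads in line 1 and 35 to 40 in line 2.

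The gradient was present within the partly methylated windows, from -5.35 points with 5 to 9 CpGs to -3.34 points with 40 to 79 and -3.40 points with 80 or more. It was also present in unmethylated windows, from -2.57 points to 0.05 points with 80 or more CpGs. Fully methylated windows had no such order, with values from -0.74 to -0.35 points over the density classes.

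**Figure D3:**
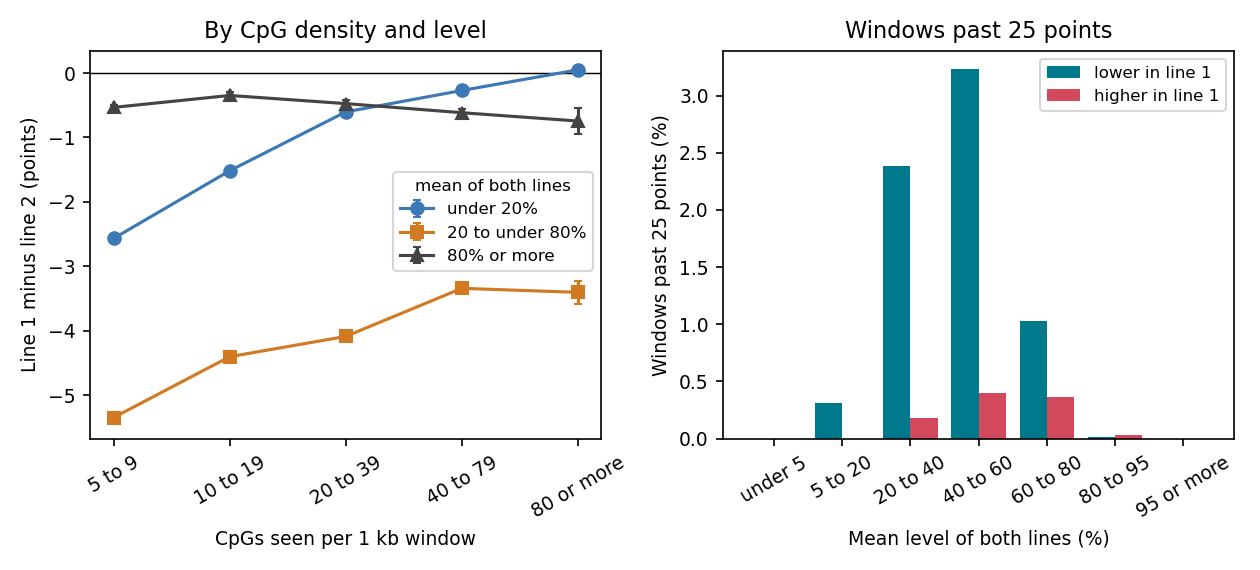
Left, mean difference between the lines in percentage points (vertical axis) by CpGs seen per 1 kb window, for windows under 20%, from 20 to under 80% and at 80% or more, with bars for the 95% counting interval. Right, percentage of windows lower or higher in line 1 by 25 points or more, by the mean level of both lines; the lower windows peak at 3.23% between 40 and 60%.

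The windows with the largest falls in line 1 lay mostly far from a placed promoter. At chr3:59429001-59430000, between the promoters of CFAP20DC and PTPRG, the level was 7.27% in line 1 and 82.6% in line 2 over 5 CpGs, with 4 of 56 and 70 of 85 reads methylated. At chr21:28821001-28822000, between APP and HEMK2, 7 CpGs were at 1.67% and 64.7%, with 4 of 262 and 223 of 357 reads, and all 7 CpGs passed the test. No CpG of that window was above 5.41% in line 1 or below 48.1% in line 2. The nearest placed promoters, only a part of all promoters, were 1277 and 1436 kb away.

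The next 3 falls were at chr11:117699001-117700000, at chr5:19479001-19480000 and at chr13:47471001-47472000. Their levels in line 1 and line 2 were 6.82% and 60.7%, 18.6% and 72.4%, and 10.9% and 61.8%, in that order. The last of them lay 0.168 kb from the placed promoter of HTR2A, the serotonin receptor 2A, which itself differed by -4.27 points. The remaining 3 windows, on chromosomes 9, 8 and 4, differed by -50.9, -50.1 and -49.5 points.

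The largest rises included a pair of windows 9 kb apart on chromosome 5. At chr5:139049001-139050000, 16 CpGs were at 89.5% in line 1 and 33.2% in line 2, with 311 of 349 and 190 of 528 reads methylated. At chr5:139040001-139041000, 23 CpGs were at 93.7% and 37.6%, and 19 of them passed the test. The nearest placed promoter, of CXXC5, a CpG-binding zinc finger protein, lay 9.38 kb from the second window and was equal in both lines at a difference of 0.

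At chr17:75422001-75423000, between start sites of SEPTIN9, a cytoskeletal GTPase, 8 CpGs were at 94.7% in line 1 and 38.8% in line 2. No CpG of that window was below 91.7% in line 1 or above 50% in line 2. At chr14:69256001-69257000, 5.91 kb from the promoter of ZFP36L1, an mRNA decay factor, 13 CpGs were at 98.0% and 52.7%. At chr1:154943001-154944000, 2.80 kb from a promoter of SHC1, an adaptor of growth factor receptors, 5 CpGs were at 61.4% and 15.9%, and at chr1:200864001-200865000, 3.29 kb from INAVA, 9 CpGs were at 84.3% and 38.9%. The rises at chr4:6426001-6427000 and chr11:65059001-65060000 were 50.4 and 48.3 points.

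For 956 of the 980 lower windows, no other window past 25 points in the same direction lay within 2 kb. The same held for 127 of the 137 higher ones. Only part of the windows that near were measured, so these counts do not show that the windows stood alone. Measured neighbours differed in the same direction. Windows 1 kb from a lower window differed by a mean of -8.47 points over 257 neighbours, and those 1 kb from a higher window by 8.65 points over 58, against -1.60 points over all windows with such a neighbour. At 10 kb the means were -4.48 and 0.88 points, against -1.94 points over all such windows. At 50 kb they were -4.96 and 0.17 points, against -1.89 points. Over pairs of CpGs, the differences correlated at r = 0.283 up to 50 bases apart. It was 0.121 in the distance class ending at 200 bases, 0.0394 in that ending at 1000 bases and 0.0448 in that ending at 200000 bases. CpGs at the shortest distances can share reads. Pairs were limited to CpGs within 49 places of each other in order. The longest classes thus came from stretches with few compared CpGs, and distance is mixed with the kind of DNA.

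The higher windows were gathered in 1 stretch of chromosome 4 more than elsewhere. The 1 Mb bin from position 6000001 held 13 of the 137 higher windows, and no other bin held more than 5. They lay within 122 kb, at chr4:6344001-6466000, between the placed promoters of WFS1 and PPP2R2C, a regulatory subunit of protein phosphatase 2A. All 20 measured windows of the stretch, with 172 CpGs, were higher in line 1, at a mean of 77.4% against 49.8%, while the other 134 windows of the bin differed by -0.46 points. The windows of line 1 lay between 48.0 and 92.7%, and those of line 2 between 25.3 and 77.8%.

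No bin held more than 6 lower windows. At chr2:158181001-158326000, 10 windows held 6 of them, and all 10 were lower in line 1, at 26.9% against 55.0%. Line 1 ran from 2.05 to 58.7% there and line 2 from 29.5 to 71.3%. The other 17 windows of that bin differed by -5.21 points. The 6 windows were 22.2% of the 27 in their bin, and the 13 on chromosome 4 were 8.44% of 154. Both stretches were picked for their counts, so their values are a description.

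**Figure D4:**
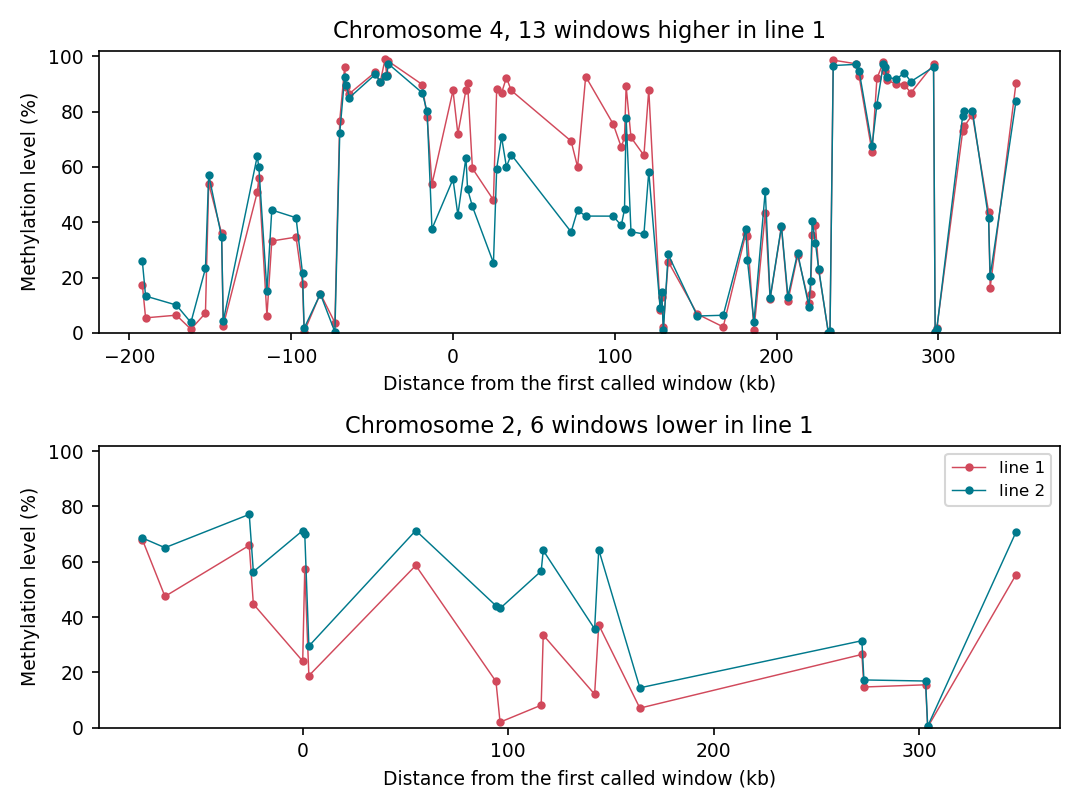
Methylation level of 1 kb windows in percent (vertical axis) in line 1 (red) and line 2 (teal) by distance in kb from the first window called in 2 stretches. Above, on chromosome 4, line 1 is higher at all 20 windows of the first 122 kb and the lines lie closer at most windows on either side; below, on chromosome 2, line 1 is lower at all 10 windows of the first 145 kb.

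Every autosome had a lower mean in line 1. Chromosomes 21, 13 and 8 had the lowest differences, at -2.77, -2.56 and -2.39 points, and chromosomes 22, 16 and 19 the highest, at -1.28, -1.37 and -1.43 points. In partly methylated windows alone, chromosome 6 was lowest at -5.93 points, followed by chromosome 21 at -5.85, and chromosomes 22 and 16 were again highest at -3.41 and -3.59. The SD over the 22 chromosomes was 0.388 points for all CpGs, 0.403 points for windows, and 0.372 points for windows after the mean of windows of the same density and level was taken off.

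The share of reads of each chromosome also differed between the lines. The ratio of line 1 to line 2, scaled to all autosomal reads, was 0.861 on chromosome 21, 0.900 on chromosome 13, 0.948 on chromosome 8 and 1.14 on chromosome 11, and between 0.963 and 1.06 elsewhere. Across the 22 chromosomes the difference over CpGs and this ratio gave r = 0.513 and rho = 0.389, and r = 0.155 without chromosomes 11, 13 and 21. For partly methylated windows r was 0.395, and -0.0504 without those 3. The part of the read ratio in these differences was not tested further.

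**Figure D5:**
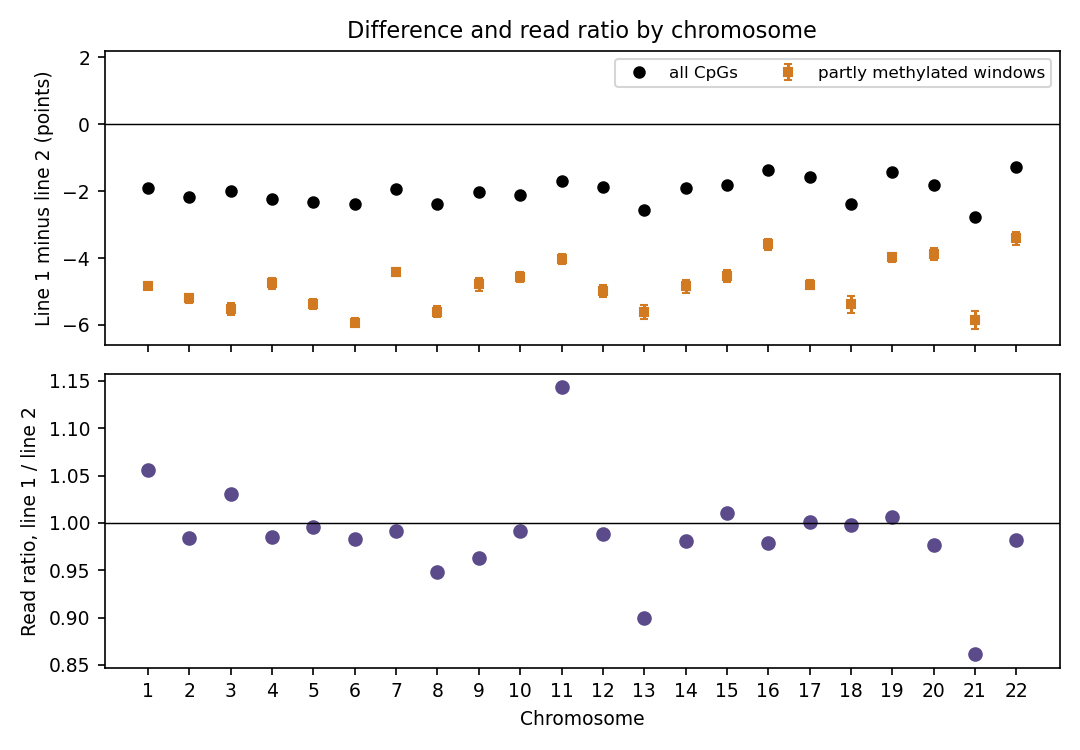
Above, mean difference between the lines in percentage points for each autosome over all CpGs (black) and over partly methylated windows (orange, bars for the 95% counting interval). Below, ratio of the read shares of line 1 and line 2; chromosomes 21 and 13 are low in both panels and chromosome 11 has the highest ratio, 1.14.

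Among 2462 bins of 1 Mb with at least 100 CpGs, 97.4% were lower in line 1. The mean over bins was -2.46 points with an SD of 2.08 points, and the median counting error of a bin was 0.264 points. Of these, 211 bins (8.57%) were lower by 5 points or more and none was higher by 5 points. The low bins had few compared CpGs and many partly methylated windows, with medians of 269 CpGs and 55.6% such windows. The other bins had 728 CpGs and 33.3%. Compared CpGs depend on the captured regions and the depth, so their number is not the CpG content of a bin. The median read ratio was 0.999 in the low bins and 0.995 in the others. Low bins made up 20.6% of the bins of chromosome 21 and 16.4% of those of chromosome 13, but 1.27% on chromosome 17 and 1.75% on chromosome 19. Bins 1 Mb apart had differences that correlated at r = 0.198 and bins 10 Mb apart at 0.0283.

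The lowest bin was chr9:8000001-9000000, at 44.7% in line 1 and 65.5% in line 2 over 109 CpGs, with a read ratio of 0.737. It was followed by chr21:26000001-27000000, which holds the promoter of MRPL39, a mitochondrial ribosomal protein, at 35.3% and 52.4%, and by chr4:145000001-146000000 at 42.5% and 59.1%. The bins chr5:19000001-20000000 and chr1:96000001-97000000 were at 43.4% and 58.9%, and at 50.5% and 65.7%. Read ratios of these 4 bins were 0.911, 0.998, 0.945 and 1.04.

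Few bins were more methylated in line 1. The highest, chr12:99000001-100000000, with the promoters of APAF1, IKBIP and ANKS1B, was at 28.0% in line 1 and 23.7% in line 2. ANKS1B, an ankyrin repeat protein of neurons, was itself at 62.6% and 41.0%. The second was chr6:21000001-22000000, which holds SOX4, at 54.4% and 50.8% over 809 CpGs. Without the 111 CpGs 4 to 6 kb before SOX4 described above, its other 698 CpGs were at 57.1% and 57.0%. It was followed by chr10:128000001-129000000 at 52.5% and 49.1%, by the bin of the chromosome 4 stretch at 44.0% and 42.3%, and by chr3:88000001-89000000 at 32.0% and 30.7%.

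The strands gave separate readings of the same windows. About 86.8% of the reads of line 1 and 86.7% of those of line 2 were on the complementary strand. Windows were chosen at 25 points on that strand and read on the forward strand where it had enough reads. On the complementary strand alone 951 windows were lower and 144 higher, and most could not be read on the forward strand. Of 89 lower windows that could, 81 were lower there and 30 passed 25 points. Their median was -17.9 points against -29.3 points where they were chosen. Of 13 such higher windows, 10 were higher and 4 passed 25 points, with a median of 15.2 against 28.6 points. Over 15367 windows measured on each strand, the differences correlated at r = 0.437, and the forward mean was -2.46 points. The share of these windows lower on the forward strand was not counted. With strands summed, 74.3% of partly methylated windows were lower in line 1, so a fall was the usual direction.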

How the data were processed

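Genomic DNA of Hep3B cells was enriched with the TruSeq Methyl Capture EPIC kit, treated with bisulfite and sequenced on an Illumina NovaSeq instrument. The deposited files give read counts per cytosine of a CpG and strand (total, CpG context and methylated, not normalized) and a fraction methylated, made by the authors from the methylated and context counts; it equalled their quotient within 1e-06 at every cytosine. The submitters' processing notes name the builds GRCh37 and hg19; the aligner and the methylation caller, with their filters, are not given in the sources used here.

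Strand counts were summed per CpG. Autosomal CpGs with at least 10 context reads in both knockout lines were used; median depths were 28 and 38 reads, so a single CpG carries a wide interval. CpGs were compared by a 2-sided Fisher exact test with Benjamini-Hochberg adjustment. Windows of 1 kb (at least 5 CpGs) and bins of 1 Mb (at least 100 CpGs) are unweighted means over CpGs, called by size alone. Density is the number of CpGs seen in either line in the window. Counting intervals are binomial at 95%. Intervals treat reads and CpGs as independent, although 1 read can span several CpGs, and they do not cover differences between cultures. Each script with a test across many CpGs was tested on simulated data. The Fisher test was compiled with numba 0.67.0 and checked against that of scipy 1.17.1, and tables were handled with pandas 2.3.3 and numpy 2.4.6 under Python 3.11.15.

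No GRCh37 annotation was used. Promoter sequences of RefSeq (GRCh38.p14) were placed by runs of 5 gaps between CpGs, with at least 7 CpGs and 70% of the CpGs matched, at most 2 extra CpGs, and a next best place with at most 50% of the votes. Of 35116 sequences 13967 were placed, 20 of them on another chromosome than the table's and left out, and 13909 of 13924 neighbouring pairs kept the order of the table. CpG-poor promoters cannot be placed in this way. No promoter of chromosome 8 was among those used. This step was added after the data had been seen. Windows and bins were named by rank (8 windows and 5 bins each way), promoters by size after their values were seen. The members and lists were chosen with earlier results of these data known.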

Additional observations from a re-analysis of the deposited data

How the results depend on the processing

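The mean differences stayed below 0 in 44 of 45 recomputations. The exception was fully methylated windows with the class set by line 1 alone, at 0.0365 points; by line 2 the value was -1.17 and by the parental library -1.68. In the same order of class setting, partly methylated windows gave -4.53, -4.71 and -4.42 points and unmethylated windows -2.04, -0.666 and -0.456. The mean over CpGs was -1.94 with a minimum of 5 reads, -1.97 with 20, -1.78 read-weighted and -1.96 on the complementary strand. With a minimum of 5 reads, 245 windows were higher and unmethylated windows differed by -1.35; with 20 reads, 72 windows were higher and 468 lower, and partly, fully and unmethylated windows differed by -4.72, -0.532 and -1.07. Thinning to the smaller depth left 2252 CpGs higher and 15776 lower, and 20.5% of the CpGs of line 2 at intermediate level. At an adjusted p under 0.01 these counts were 1826 and 13086. At 10 points, 2083 windows were higher and 11717 lower; at 50 points, 4 and 7 windows and 879 and 4927 CpGs. Windows of 10 or more CpGs numbered 32 higher and 131 lower, with -4.08 points in partly and -0.594 in unmethylated ones. Shifted windows gave -4.74 and -1.28, 2 kb windows -0.512 in fully and -1.46 in unmethylated ones, and read-weighted levels -4.82 in partly methylated ones. Of 5 Mb bins, 15 were lower by 5 points. With density counted over covered CpGs, the classes from poor to dense differed by -3.27, -2.81, -2.12, -1.37, -0.784 and -0.306. In partly methylated windows, chromosomes 21, 13, 8, 19, 16 and 22 differed by -5.85, -5.62, -5.61, -3.98, -3.59 and -3.41. Promoters matched at every CpG (9040) held 17 lower and 5 higher ones, and those with 10 measured CpGs (10635) held 8 and 5. The causes of these shifts were not tested. Of the 16 named windows, 12 were also named by read-weighted rank. No paired analysis was possible because each line has 1 library, and for the same reason none could be left out. Depth limits single CpGs most: at 28 and 38 reads, small differences were not detectable.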

Other observations

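Start sites of 1 gene, and CpGs near each other, differed in opposite directions at a few places. For MYLK3, a myosin light chain kinase of the heart, the start site at chr16:46797109-46797408 was at 62.9% in line 1 and 84.9% in line 2 over 10 CpGs, and the one at chr16:46782207-46782506 was at 27.1% and 9.42% over 6 CpGs. Near GBX2, the placed promoter was at 22.2% in line 1 and 52.4% in line 2, while 3 windows within chr2:237071001-237102000 were at a mean of 68.1% and 37.5%. These places were picked after their values were seen.

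Unmethylated promoters had small differences in both directions. Of 10172 promoters under 20% in both lines, 502 (4.94%) were higher by at least 2 points in line 1 and 599 (5.89%) were lower.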
